A study of Mus musculus with 48 samples.

Results

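Male offspring exposed through their dams to lead plus manganese were compared with male offspring exposed to lead alone, so that manganese was the exposure that differed between the groups. The comparison used 12 of the 48 hippocampal RNA-seq libraries of the series: 6 males of the Pb group and 6 males of the Pb+Mn group, taken by their labels. All were mice of the outbred CD-1 stock, aged 2 months. Dams drank water containing Pb at 100 ppm alone, or with Mn at 2 g/L, starting 2 weeks before mating and ending at weaning (postnatal day 21), a span of 8 weeks. Both groups therefore carried the lead exposure. Male control (no added metal) and male Mn (Mn at 2 g/L) animals, and the 4 female groups of the same exposures, each with 6 animals, are used below only where named. The exposure was given to the dam, and the labels do not state which animals were littermates, so each p-value rests on how animals vary, and variation among litters is not measured separately.

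Manganese is an essential cofactor of enzymes such as mitochondrial superoxide dismutase and glutamine synthetase, and an excess in the brain is neurotoxic. The importer genes Slc39a8 and Slc39a14 and the exporter gene Slc30a10 set its level in cells. Lead enters cells partly through calcium and iron routes, inhibits the heme synthesis enzyme encoded by Alad, and blocks NMDA-type glutamate receptors, which are central to hippocampal plasticity.

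Total counts ranged from 10.9 to 25.7 M (mega) counts per library in the Pb group (median 17.3) and from 14.7 to 24.3 M in the Pb+Mn group (median 17.9). Markers of the labelled tissue were present in all 12 animals: summed CPM (counts scaled to a common library total) of 14 dentate granule cell genes ranged from 688 to 1220, and those of 11 CA1 pyramidal neuron genes from 634 to 1260. Markers of neighbouring tissue varied between animals. The summed CPM of 17 choroid plexus genes ranged from 483 to 10600 in the Pb group and from 279 to 6760 in the Pb+Mn group. The sum of 16 thalamus and habenula genes ranged from 244 to 1550 and from 450 to 667 in the same order, with Pb 3 and Pb 4 highest. These are bulk samples, so fewer cells of a type and less RNA per cell cannot be told apart.

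Library Pb 6 stood apart from the other 11. The transcript length trend, which is the slope of a library's log2 CPM, centred on each gene's mean, on log2 transcript length, was -0.356 in Pb 6 and between -0.145 and 0.042 in the other 5 Pb animals. In the Pb+Mn group it ranged from -0.023 to 0.097. A negative slope means that short transcripts held a larger share of the counts than in other libraries. The mean slope was -0.096 ± 0.141 in the Pb group and 0.036 ± 0.040 in the Pb+Mn group (SD, n = 6 each), a difference of 0.132 (two-sided exact permutation test, 924 arrangements, p = 0.019). Without Pb 6 the difference was 0.080 (exact permutation p = 0.03). It missed the threshold of 0.05 when Pb+Mn 1 (difference 0.120, exact permutation p = 0.058) or Pb+Mn 4 (0.128, exact permutation p = 0.052) was left out. The main results below are therefore given in 3 fits, in this order: all animals (the full fit), without Pb 6, and with the length trend of every library as a covariate (the length-adjusted fit).

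**Figure D1:**
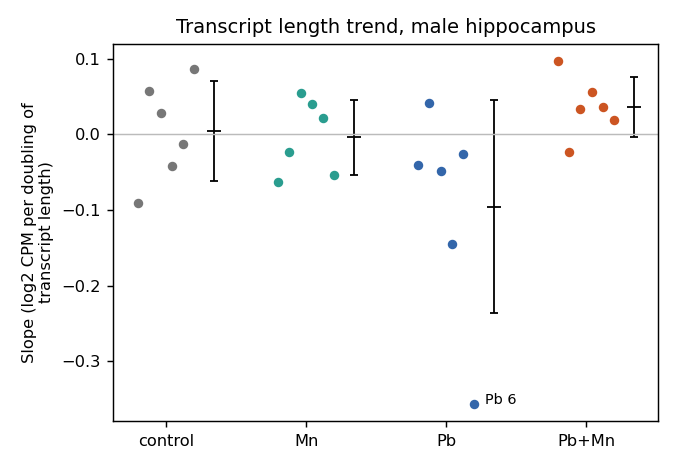
Transcript length trend of each male library (slope of log2 CPM on log2 transcript length, points, replicates 1 to 6 from left to right) in the 4 male exposure groups, with the group mean and SD beside the points. The Pb group reached lowest, at -0.356 in Pb 6, and the 6 Pb+Mn animals sat between -0.023 and 0.097.

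No gene passed the adjusted threshold in the full fit: 0 of 16360 genes tested (0%) had an adjusted p under 0.05 (edgeR quasi-likelihood test, Benjamini-Hochberg over all genes), and the smallest adjusted p was 0.11. At an unadjusted p under 0.05, 1371 genes were higher in the Pb+Mn animals (8.38%) and 2272 were lower (13.9%). Without Pb 6 these counts were 651 higher (3.98%) and 634 lower (3.88%). In the length-adjusted fit they were 350 higher (2.14%) and 519 lower (3.17%). The counts given below for each list of genes are to be read beside these shares of all genes. No gene passed the adjusted threshold in either of those fits. Other tools gave other counts at the adjusted threshold: DESeq2 called 202 genes and limma voom with library quality weights 471, while limma voom without weights called 0. Leaving out Pb 2 gave 878 calls and leaving out Pb 5 gave 1041. Those 2 animals had length trends of 0.042 and -0.026, the 2 highest of the Pb group. Every other single omission gave 0. A set of 207 genes (1.27%) was higher and 279 (1.71%) lower at an unadjusted p under 0.05 in all 3 fits. Values of the 12 animals did not overlap between the groups for 82 genes with higher (0.501%) and 77 genes with lower (0.471%) values in the Pb+Mn group.

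Transcript length followed the direction of the differences in the full fit. Genes lower in the Pb+Mn group had a median length of 1686 nt, genes higher there 4728 nt, and all genes tested 3053 nt. Across deciles of length, the median log2 fold change went from -0.43 in the shortest transcripts (median 808 nt) to 0.18 in the longest (8216 nt). Without Pb 6 the same deciles went from -0.22 to 0.13. In the length-adjusted fit the shortest and longest deciles had medians of -0.04 and -0.03. The covariate is computed from the lengths of these same genes, so flat deciles largely follow from the adjustment. Its mean differed between the groups, so the adjustment can also remove part of any difference that goes with exposure. The genes called in all 3 fits still differed in composition: the 207 higher genes had a median length of 3714 nt and a median GC content of 54.1%, and the 279 lower genes 2510 nt and 43.9%, against 50.1% GC over all genes. A trend with GC content remained over all genes in the length-adjusted fit. Its median log2 fold change was -0.14 in the lowest GC decile and 0.07 in the highest. In that fit 11.4% and 0.373% of those deciles were lower at an unadjusted p under 0.05, and 0.249% and 4.47% higher. No fit adjusted for GC content, which limits every gene and list below.

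**Figure D2:**
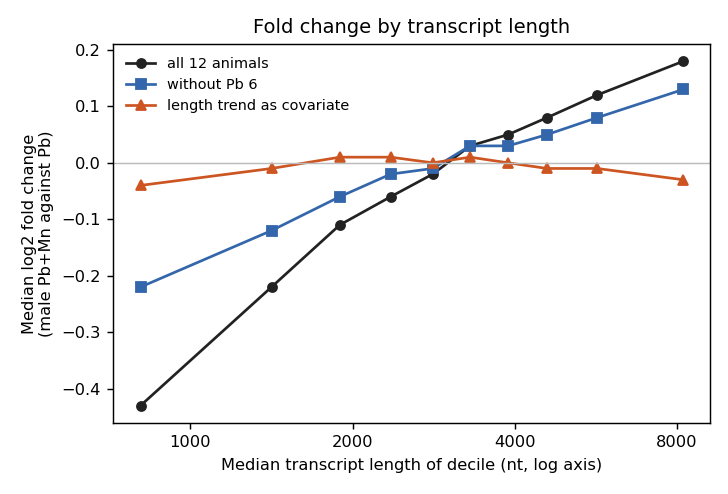
Median log2 fold change (male Pb+Mn against Pb) in each decile of the genes by transcript length, against the median length of that decile on a log axis, in the 3 fits. The full fit runs from -0.43 at 808 nt to 0.18 at 8216 nt, and the fit without Pb 6 from -0.22 to 0.13. The length-adjusted fit stays near 0 at both ends, which largely follows from the adjustment.

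Crispld2, which encodes a secreted cysteine-rich protein known as a glucocorticoid-regulated gene in lung, had the smallest p among the higher genes. Its level was 1.51 to 2.58 CPM in the Pb group (median 2.19) and 3.38 to 4.45 CPM in the Pb+Mn group (median 4.09), so every Pb+Mn animal was above every Pb animal. The log2 fold change was 0.92 ± 0.19 (SE) in the full fit (edgeR adjusted p = 0.11), 1.00 without Pb 6 and 0.93 in the length-adjusted fit. Its male control and Mn medians, 3.09 and 3.42 CPM, lay between the medians of the 2 groups. The call depends on the tool, since DESeq2 gave an adjusted p of 0.0082.

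Cemip encodes an enzyme that breaks down hyaluronan, a polymer of the extracellular matrix. It ranged from 14.4 to 21.9 CPM (median 18.6) in the Pb group and from 26.3 to 36.2 CPM (median 30.7) in the Pb+Mn group. The groups did not overlap, and the log2 fold change was 0.74 ± 0.17, 0.68 without Pb 6 and 0.52 length-adjusted. Kmt2b, which encodes a histone H3 lysine methyltransferase, ranged from 33 to 49.5 CPM (median 42.6) and from 54.9 to 58.5 CPM (median 56.8) in the same order. All 6 Pb+Mn animals were higher and closely spaced, with log2 fold changes of 0.42 ± 0.10, 0.36 and 0.26 in the 3 fits. Phf12, which encodes a subunit of a Sin3 corepressor complex, had medians of 32.7 and 45.5 CPM and log2 fold changes of 0.41, 0.35 and 0.24, with only the lowest Pb+Mn animal inside the Pb range. The groups also did not overlap for the ribosome biogenesis gene Urb1 (medians 6.38 and 10.1 CPM), the sorting nexin gene Snx30 (41.2 and 55.7 CPM), the orphan receptor gene Gpr61 (10.3 and 12.6 CPM), Radil (5.45 and 7.45 CPM) and the RNA exosome gene Exosc10 (27.5 and 31.9 CPM). Stard13 and the stress kinase gene Map3k4 had medians of 17.6 against 25.7 and 44.2 against 60.8 CPM, with overlap. These 11 genes, in length-adjusted log2 fold changes, ranged from 0.20 for Exosc10 to 0.93 for Crispld2.

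Among genes with lower values, Car8, which encodes a protein that binds the inositol trisphosphate receptor and is known from cerebellar Purkinje cells, had the smallest p. It ranged from 3.74 to 17.2 CPM in the Pb group (median 9.17) and from 2.33 to 4.51 CPM in the Pb+Mn group (median 4.02). The Pb animals spread widely and the lowest overlapped the Pb+Mn range. Its log2 fold change was -1.37 ± 0.30 in the full fit, -1.11 without Pb 6 and -0.85 length-adjusted. Idh1 encodes the cytosolic isocitrate dehydrogenase, a source of NADPH. It ranged from 53.3 to 66 CPM (median 56.1) and from 43.1 to 53.5 CPM (median 46.1), with only the highest Pb+Mn animal inside the Pb range, and its log2 fold changes were -0.33 ± 0.07, -0.28 and -0.26. Nxt2, a nuclear RNA export gene, had medians of 46.9 and 28 CPM, and Apoo, a gene of the mitochondrial cristae organising complex, 31.1 and 20.6 CPM. In both, 5 of 6 Pb+Mn animals were below every Pb animal. The log2 fold changes in the 3 fits were -0.71, -0.60 and -0.49 for Nxt2 and -0.69, -0.45 and -0.35 for Apoo. Hnmt, which encodes the enzyme that inactivates histamine, had medians of 20.5 and 13.1 CPM, and log2 fold changes of -0.74, -0.51 and -0.40. Dnajb9, an endoplasmic reticulum chaperone gene, had medians of 45.8 and 36.1 CPM and log2 fold changes of -0.31, -0.29 and -0.28 in the 3 fits. Aspn, a small proteoglycan gene, had medians of 2.51 and 1.17 CPM, and Slc30a9, a zinc transporter family gene, 213 and 175 CPM. Fuca2, a fucosidase gene, had medians of 54.1 and 42.4 CPM. Gng12, a G protein subunit gene, had medians of 82.1 and 72.5 CPM, and its log2 fold change of -0.36 went to -0.19 without Pb 1, which held 140 CPM.

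**Figure D3:**
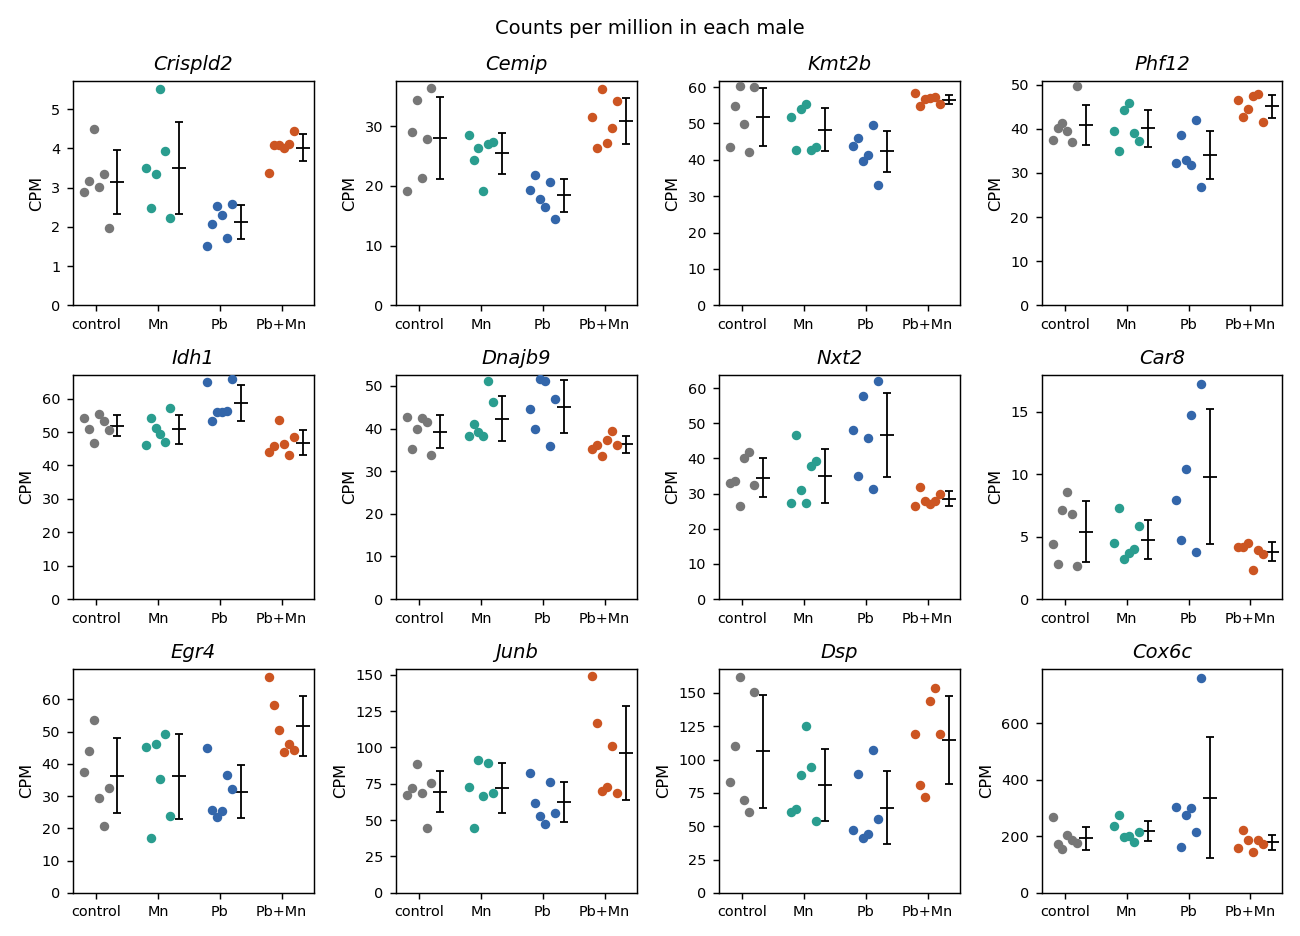
CPM of 12 genes in each male of the control, Mn, Pb and Pb+Mn groups (points, replicates 1 to 6 from left to right; mean and SD beside them), each panel on its own axis from 0. Crispld2, Cemip and Kmt2b separate all 6 Pb+Mn from all 6 Pb animals, and Cox6c shows Pb 6 at 761 CPM against 162 to 304 CPM in the other Pb animals.

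Immediate early genes, which are switched on within minutes by neuronal activity, had higher values in the Pb+Mn group. Of 22 such genes, 22 had a positive log2 fold change in the full fit, 22 without Pb 6 and 21 in the length-adjusted fit. The median log2 fold change was 0.41, 0.38 and 0.31, against -0.01, -0.00 and -0.01 over all genes. At an unadjusted p under 0.05, 9, 8 and 3 of the 22 were higher and 0 were lower. Over all genes, 8.38%, 3.98% and 2.14% were higher. As over all genes, 0 of the 22 passed the adjusted threshold. Their summed CPM was 1180 to 2080 in the Pb group (median 1260) and 1550 to 2210 in the Pb+Mn group (median 1740), and only Pb 1 of the Pb animals reached into the Pb+Mn range. Leaving out any 1 of the 12 animals kept the median between 0.37 and 0.54.

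Junb, Btg2 and Egr4 were the members higher in all 3 fits. In cells, many genes of this kind carry elements bound by the activity-dependent factor CREB close to their start, so the bases just before the annotated start of these 3 genes are shown. They are RefSeq sequences on build GRCm38.p6, all read from the minus strand, 5′ to 3′, and capitals mark the core motif TGACG or its reverse complement CGTCA.
Junb, chr8:84978749-84978998: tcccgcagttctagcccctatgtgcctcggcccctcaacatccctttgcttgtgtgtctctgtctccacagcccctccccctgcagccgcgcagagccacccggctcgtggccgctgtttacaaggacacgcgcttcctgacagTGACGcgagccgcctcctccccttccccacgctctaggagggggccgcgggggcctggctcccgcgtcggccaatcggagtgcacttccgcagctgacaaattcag
Btg2, chr1:134079156-134079405: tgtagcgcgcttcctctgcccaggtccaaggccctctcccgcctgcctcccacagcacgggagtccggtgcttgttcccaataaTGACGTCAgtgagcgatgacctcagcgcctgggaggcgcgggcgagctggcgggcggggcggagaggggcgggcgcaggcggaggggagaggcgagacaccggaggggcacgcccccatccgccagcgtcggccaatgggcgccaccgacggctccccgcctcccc
Egr4, chr6:85513590-85513839: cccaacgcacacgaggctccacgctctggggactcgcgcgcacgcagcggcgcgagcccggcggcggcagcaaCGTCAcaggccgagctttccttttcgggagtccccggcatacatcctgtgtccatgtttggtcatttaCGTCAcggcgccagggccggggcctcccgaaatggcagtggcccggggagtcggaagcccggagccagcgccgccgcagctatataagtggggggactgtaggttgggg
Junb held 1 match, beginning 106 bases before the start. Btg2 held 2 overlapping matches, which together form the full palindrome TGACGTCA, at 166 and 163 bases before the start. Egr4 held 2 matches, at 177 and 109 bases. A search of both strands found a match in 13 of the 18 immediate early genes with a window (72.2%), and in 3447 of 11833 genes (29.1%). Other motifs were searched as well. The serum response element was found in 1 of the 18 (5.6%) and in 1.4% of all genes with a window. The motif TATAAA was found in 2 of the 18 (11.1%) and in 8.0%. The immediate early genes had 1.61 windows per gene in that table and all genes 1.28. These matches describe the letters of the sequences, and binding was not measured.

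Egr4, which encodes a zinc finger transcription factor, ranged from 23.6 to 45 CPM (median 28.9) in the Pb group and from 43.6 to 67 CPM (median 48.2) in the Pb+Mn group. Only Pb 1, at 45 CPM, reached the Pb+Mn range. The log2 fold change was 0.72 ± 0.24 in the full fit (edgeR adjusted p = 0.11), 0.73 without Pb 6 and 0.54 length-adjusted. Junb, an AP-1 transcription factor gene, ranged from 47.5 to 82.4 CPM (median 58.3) and from 68.7 to 149 CPM (median 86.9), with log2 fold changes of 0.62, 0.59 and 0.54. Its 3 highest Pb+Mn animals were above every Pb animal. Btg2, an antiproliferative gene, ranged from 8.87 to 22.1 CPM (median 18.2) and from 20 to 43.6 CPM (median 24.8), with log2 fold changes of 0.67, 0.53 and 0.62. Fosb had medians of 11.5 and 27.2 CPM (log2 fold change 0.77, and 0.57 length-adjusted). The activity-regulated transcription factor gene Npas4 had medians of 13.5 and 18.7 CPM (0.84 and 0.70), and Egr2, named after its values were seen, 4.11 and 7.03 CPM (0.87 and 0.63). Fosb, Npas4 and Egr2 are examples outside the naming rules. Each lies above the full-fit median of 0.41 of the 22 genes, so they do not stand for the list. Fos, Arc and Bdnf were nearer to their spread in the full fit, at 0.52 ± 0.29, 0.39 ± 0.28 and 0.34 ± 0.22. Without Pb 6 they were 0.41, 0.30 and 0.50, and length-adjusted 0.41, 0.44 and 0.30.

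Glucocorticoid-responsive genes, which are induced by stress hormone, had a median log2 fold change of 0.27 over 15 genes, 0.24 without Pb 6 and 0.21 length-adjusted. Of these, 4, 2 and 0 were higher at an unadjusted p under 0.05. Without Pb+Mn 4 the median was 0.10. Errfi1, which encodes an inhibitor of the EGF receptor, ranged from 36.8 to 52.3 CPM in the Pb group and from 52.5 to 75.3 CPM in the Pb+Mn group, without overlap, and had log2 fold changes of 0.44, 0.39 and 0.22. The clock gene Per1 had medians of 72.5 and 96.2 CPM (0.36, 0.34 and 0.23).

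Dentate granule cells form the input layer of the hippocampus. Of 14 genes that mark them, 12 had a positive log2 fold change in the full fit, and the median was 0.43, with 0.40 without Pb 6 and 0.17 length-adjusted. At an unadjusted p under 0.05, 7, 5 and 2 were higher in the 3 fits. Their summed CPM ranged from 688 to 1040 (median 780) in the Pb group and from 820 to 1220 (median 1180) in the Pb+Mn group. Dsp, the desmoplakin gene, ranged from 41.3 to 107 CPM (median 51.2) and from 72 to 154 CPM (median 119), with Pb 2 and Pb 5 at 89 and 107 CPM inside the Pb+Mn range. Its log2 fold changes were 0.84 ± 0.26, 0.81 and 0.47. Npnt, an integrin ligand gene, had medians of 31.3 and 55.2 CPM (0.62, 0.54 and 0.41). Prox1, the transcription factor gene that specifies granule cells, had medians of 79.4 and 129 CPM, but its log2 fold change of 0.63 was 0.21 in the length-adjusted fit, and its transcript is 7913 nt long. The 11 CA1 pyramidal neuron genes had medians of 0.02, 0.03 and -0.08, with 0 called in either direction in the 3 fits.

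Markers of the meninges, the membranes around the brain, also had higher values in the Pb+Mn group. The median log2 fold change of 16 such genes was 0.51, with 0.42 without Pb 6 and 0.37 length-adjusted, and 5, 3 and 3 were higher at an unadjusted p under 0.05. The summed CPM was 388 to 823 (median 437) in the Pb group and 540 to 892 (median 742) in the Pb+Mn group, with Pb 3 and Pb 4 inside the Pb+Mn range. Aldh1a2, a retinoic acid synthesis gene, had medians of 3.66 and 7.29 CPM and log2 fold changes of 1.00, 0.91 and 1.04. Fmod, a collagen-binding proteoglycan gene, ranged from 3.91 to 11.7 CPM and from 12.5 to 21.1 CPM, without overlap. None of the 16 genes was at 0 in any of the 12 animals. The part of meningeal tissue in the differences of other gene groups was not tested. The 16 thalamus and habenula genes had a median of -0.33, and 0.13 without Pb 3.

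Short, abundant housekeeping genes had lower values in the Pb+Mn group in the full fit and smaller differences in the other fits, with medians near 0 in the length-adjusted fit. Of 37 cytosolic ribosomal protein genes, 36 were lower at an unadjusted p under 0.05 in the full fit, 1 without Pb 6 and 1 in the length-adjusted fit, and the median log2 fold change was -0.51, -0.27 and -0.05. Their summed CPM was 21600 in Pb 6, 7710 to 12900 in the other Pb animals and 7170 to 10200 in the Pb+Mn group. Of 31 nuclear-encoded respiratory chain genes, 25, 5 and 3 were lower, with medians of -0.65, -0.33 and -0.06. Cox6c, a cytochrome c oxidase subunit gene of 738 nt, ranged from 162 to 761 CPM (median 289) and from 145 to 222 CPM (median 179), and its log2 fold change went from -0.92 to -0.49 and -0.23. Of 25 proteasome genes, 17, 1 and 1 were lower, with medians of -0.34, -0.13 and -0.02.

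Genes of the mitochondrial genome, which encode core subunits of the respiratory chain, also had lower values. All 13 had negative log2 fold changes in each of the 3 fits, with medians of -0.43, -0.43 and -0.37. With a smooth curve of transcript length per library as an offset in place of the covariate, the median was -0.14, against -0.20 for the ribosomal protein genes, -0.20 for the respiratory chain genes and 0.39 for the immediate early genes. The counts lower at an unadjusted p under 0.05 were 7, 5 and 3. The summed CPM was 41500 to 74100 (median 50200) in the Pb group and 35600 to 44900 (median 41600) in the Pb+Mn group. mt-Nd5, a complex I subunit gene, ranged from 3070 to 5250 CPM (median 3810) and from 2300 to 3210 CPM (median 3130), with overlap at the lower end of the Pb group. Its log2 fold changes were -0.43 ± 0.17, -0.40 and -0.36 (edgeR unadjusted p = 0.013, 0.027 and 0.047). The sources used here do not say how reads shared with nuclear copies were counted.

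**Figure D4:**
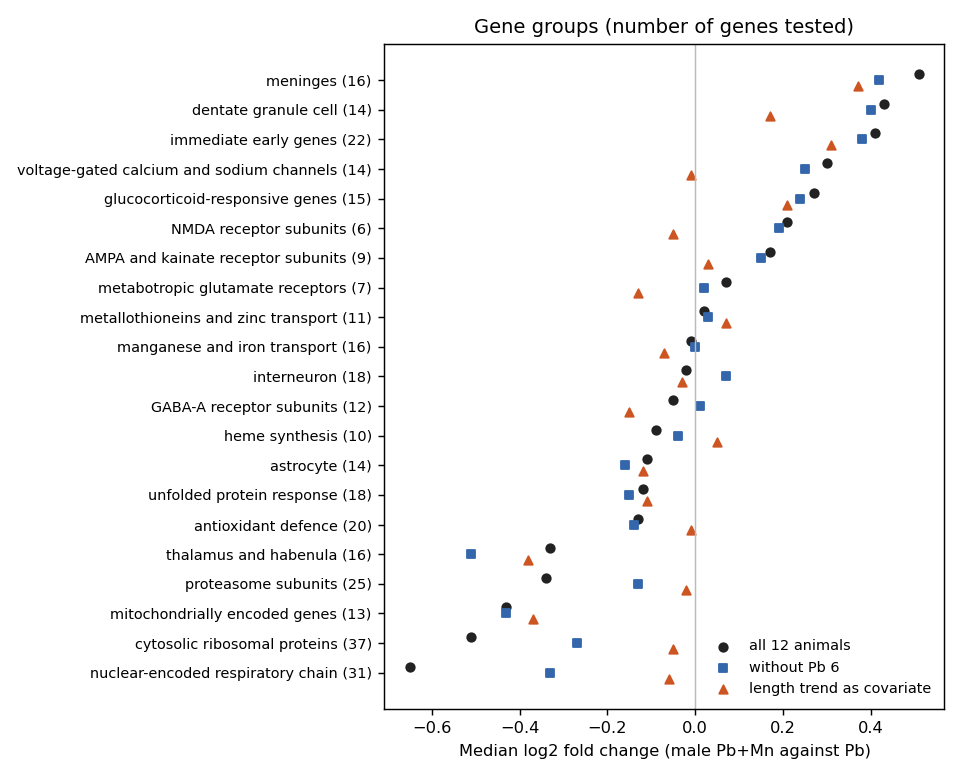
Median log2 fold change (male Pb+Mn against Pb) of 21 gene groups in the 3 fits, with the number of genes tested in parentheses. Ribosomal, respiratory chain and proteasome medians lie near 0 in the length-adjusted fit (-0.05, -0.06 and -0.02), and the immediate early gene and mitochondrially encoded medians lie at 0.31 and -0.37 in that fit.

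The lists of genes that handle metals held 0 calls at the adjusted threshold in the full edgeR fit, where 0 of all 16360 genes passed. Of 16 manganese and iron transport genes, 1 was higher and 3 were lower at an unadjusted p under 0.05 in the full fit. Over all genes, 8.38% were higher and 13.9% lower in that fit. Without Pb 6, 1 of the 16 was higher and 0 were lower, and in the length-adjusted fit 0 were called. Their medians were -0.01, -0.00 and -0.07. The exporter gene Slc30a10 ranged from 14.2 to 18.2 CPM (median 15.8) in the Pb group and from 12.7 to 20.1 CPM (median 16) in the Pb+Mn group, with log2 fold changes of -0.02 ± 0.15, -0.01 and -0.07. The importer gene Slc39a14 ranged from 25.6 to 37.5 CPM (median 32) and from 36.6 to 45.9 CPM (median 39.2), with log2 fold changes of 0.30 ± 0.11, 0.25 and 0.09. Slc39a8, the other importer gene, had medians of 5.52 and 4.26 CPM (-0.33 ± 0.15, -0.28 and -0.32). Slc11a2, which encodes a divalent metal transporter, had medians of 27.8 and 28.8 CPM (-0.01 ± 0.09, -0.03 and -0.10). The metal sensor gene Mtf1 ranged from 27.9 to 33 CPM and from 35.3 to 37.3 CPM, without overlap, with log2 fold changes of 0.28, 0.27 and 0.13. It passed the adjusted threshold in 1 setting, without Pb 2 (edgeR adjusted p = 0.047). Its metallothionein targets Mt1 and Mt2 had overlapping ranges, with log2 fold changes of -0.19 ± 0.22, -0.07 and 0.12 for Mt1 and 0.09 ± 0.29, 0.28 and 0.39 for Mt2. Of 10 heme synthesis genes, 1 was higher and 1 lower in the full fit and 0 in the other fits. Alad had medians of 34.4 and 29.6 CPM (-0.24 ± 0.18, -0.16 and -0.08).

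Voltage-gated channel, NMDA, and AMPA and kainate receptor genes had positive medians in the full fit that were near 0 after length adjustment. Metabotropic glutamate and GABA-A receptor genes did not follow this pattern. The 14 voltage-gated calcium and sodium channel genes had medians of 0.30, 0.25 and -0.01, and 6, 1 and 0 were higher at an unadjusted p under 0.05. The 6 NMDA receptor genes tested had medians of 0.21, 0.19 and -0.05 with 0 called, and Grin2b had log2 fold changes of 0.49 ± 0.25, 0.39 and -0.06. The 9 AMPA and kainate receptor genes had medians of 0.17, 0.15 and 0.03. The 7 metabotropic glutamate receptor genes had medians of 0.07, 0.02 and -0.13. Grm2, a presynaptic member, differed from the rest of that group in being called in all 3 fits. It ranged from 42.6 to 76.7 CPM (median 51.5) and from 50.5 to 117 CPM (median 81.6), with log2 fold changes of 0.65 ± 0.24, 0.60 and 0.53. The 12 GABA-A receptor genes had medians of -0.05, 0.01 and -0.15, and 3, 2 and 1 were lower at an unadjusted p under 0.05. Over all genes, 13.9%, 3.88% and 3.17% were lower in the 3 fits. Gabrg1, which encodes a gamma subunit, ranged from 18.2 to 38.5 CPM (median 32.8) and from 15.2 to 22.7 CPM (median 19.1), with log2 fold changes of -0.69 ± 0.16, -0.60 and -0.53. The 18 interneuron genes had medians of -0.02, 0.07 and -0.03, with 9, 10 and 7 positive, and 4, 2 and 2 were lower and 0 higher at an unadjusted p under 0.05. Among them, Pvalb, the parvalbumin gene of fast-spiking cells, had medians of 46.4 and 28.9 CPM and log2 fold changes of -0.73, -0.57 and -0.33, while Sst, the somatostatin gene, went from -0.31 to -0.01 and 0.04.

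Of 20 antioxidant genes, 7, 3 and 4 were lower and 0 higher at an unadjusted p under 0.05 in the 3 fits. Over all genes, 13.9%, 3.88% and 3.17% were lower. The median of the 20 antioxidant genes was -0.13, -0.14 and -0.01. Gpx4, which encodes the peroxidase that protects membrane lipids, ranged from 234 to 799 CPM (median 339) and from 170 to 278 CPM (median 213), with Pb 6 at 799 CPM and log2 fold changes of -0.89, -0.55 and -0.18. Gsr, the glutathione reductase gene, had values of the opposite sign, at 0.31, 0.31 and 0.32, with an unadjusted edgeR p of 0.052 in the full fit. Of 18 unfolded protein response genes, 1 was higher and 3 were lower in the full fit, 0 and 1 without Pb 6 and 0 and 2 length-adjusted, with medians of -0.12, -0.15 and -0.11. Of 14 astrocyte genes, 2, 2 and 0 were lower in the 3 fits, with medians of -0.11, -0.16 and -0.12. The full-fit count was near the 13.9% of all genes that were lower. Among the astrocyte genes, S100b had medians of 259 and 148 CPM (-0.72, -0.60 and -0.30).

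Glo1, which encodes the glyoxalase that removes methylglyoxal, had log2 fold changes of -0.94 ± 0.26, -0.91 and -0.94 in the 3 fits. Among these 12 animals its values fell in separate ranges. Pb 1, 2, 4, 5 and 6 held 131, 246, 183, 218 and 194 CPM, Pb 3 held 94.9 CPM, and the 6 Pb+Mn animals held 80.7 to 101 CPM. AC165951.1, an antisense gene model close to Glo1 on the same chromosome in GENCODE M21, with Dnah8 and part of Glp1r between them, was at 15.9, 51.6, 26.5, 35.8 and 34.3 CPM in the same 5 Pb animals. It was at 0 CPM in Pb 3 and at 0 to 0.211 CPM in all 6 Pb+Mn animals. AC165951.1 was named after its values were seen, and it was the 1 gene past the adjusted threshold when only the 12 libraries were fitted (edgeR adjusted p = 0.019). It overlaps Glp1r and Umodl1 on the other strand, and the sources used here do not say whether counting used strand.

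Both levels of Glo1 and AC165951.1 also occurred outside the lead groups and in both sexes. Male controls 2, 5 and 6 held 195, 185 and 123 CPM of Glo1 with 37.6, 33.3 and 21 CPM of AC165951.1, and control 4 held 109 and 2.56 CPM. All 6 male Mn animals held 78.7 to 96.9 CPM of Glo1 and at most 0.186 CPM of AC165951.1. Among females, Pb+Mn 1 and 3 held 142 and 197 CPM of Glo1 with 16.5 and 38.2 CPM of AC165951.1, while females Pb 3 and Pb 5 held 98.7 and 97.8 CPM with 0.183 and 0 CPM. A duplication that includes Glo1 is known to segregate in laboratory mouse stocks. Copy number and genotype were not measured, and their part in this difference was not tested.

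**Figure D5:**
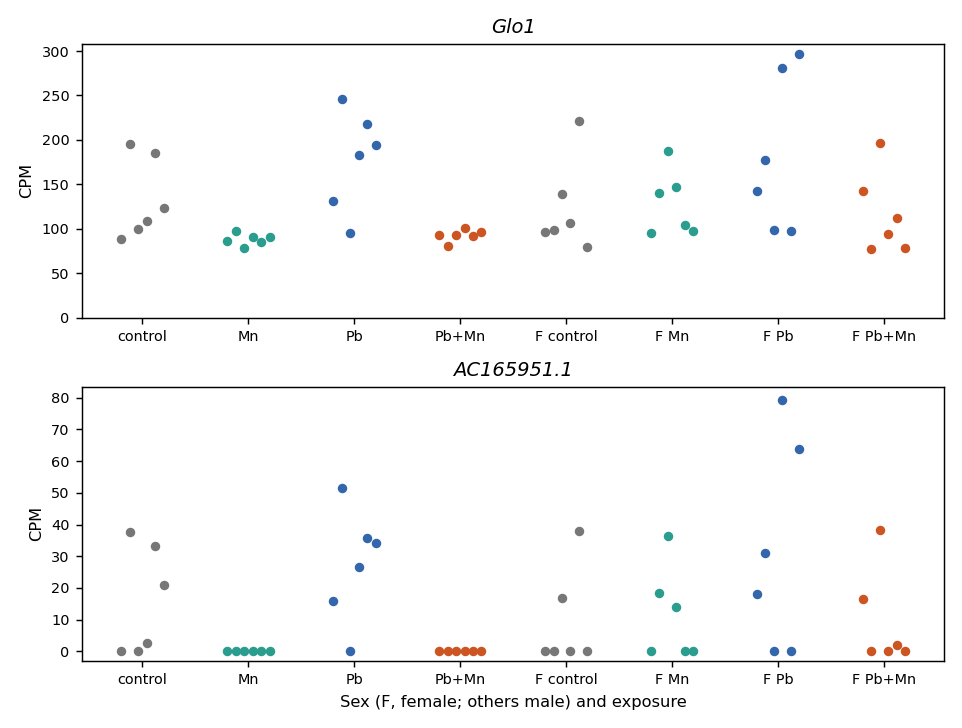
CPM of Glo1 (top) and AC165951.1 (bottom) in each of the 48 animals, by exposure in males and females (F), replicates 1 to 6 from left to right. The 6 male Pb+Mn and 6 male Mn animals lie at or below 101 CPM of Glo1 and near 0 CPM of AC165951.1, and each of the other 6 groups holds animals with high and with low values. Some Glo1 values lie in between.

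Both lead groups were also set beside the male controls. At an unadjusted p under 0.05, 1886 genes (11.5%) differed between Pb and control males and 367 (2.24%) between Pb+Mn and control males, with 0 past the adjusted threshold in either. Without Pb 6, the first count was 763. In the length-adjusted fit the counts were 876 and 542. These comparisons share animals with each other and with the comparison of Pb+Mn with Pb, so their values are given side by side only. In the full fit, the median log2 fold change of the dentate granule genes was -0.42 for Pb against control and 0.02 for Pb+Mn against control, and that of the meningeal genes -0.40 and 0.02. For immediate early genes it was -0.18 and 0.23. Crispld2 had -0.60 ± 0.20 and 0.32 ± 0.19, Cemip -0.60 ± 0.17 and 0.14 ± 0.17, Egr4 -0.21 ± 0.24 and 0.51 ± 0.24, and Idh1 0.18 ± 0.07 and -0.15 ± 0.07.

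Whether the difference with manganese depended on lead was tested as the Pb by Mn interaction, (Pb+Mn minus Pb) minus (Mn minus control), in males. No gene passed the adjusted threshold (edgeR, smallest adjusted p 0.37; DESeq2 0). At an unadjusted p under 0.05, 2136 genes differed (13.1%), with 880 without Pb 6 and 824 length-adjusted. Mn against control in males, which shares no animal with Pb+Mn against Pb, gave 314 genes (1.92%) at an unadjusted p under 0.05 and 0 past the adjusted threshold. Of the 486 genes called in all 3 fits, 168 (34.6%) had the same sign in Mn against control, against 43.9% of all genes. Vwf, the von Willebrand factor gene of endothelium, had the smallest p for a positive interaction, at 1.43 ± 0.35. It ranged from 6.99 to 23.9 CPM (median 14.4) in the Pb group and from 20.8 to 43.4 CPM (median 24) in the Pb+Mn group, and its log2 fold change was 0.92 with Pb present and -0.52 ± 0.25 without it. Gpr61 (0.54 ± 0.14) and the zinc finger gene Zfat (0.75 ± 0.20) followed, and Gng4 (-0.75 ± 0.20), Dnajb9 (-0.42 ± 0.11) and Hnmt (-0.90 ± 0.25) had the smallest p for a negative interaction. In the full fit, the median interaction of the meningeal genes was 1.02, that of the dentate granule genes 0.71, and that of the immediate early genes 0.44. It was -0.66 for the nuclear-encoded respiratory chain genes, -0.65 for the mitochondrially encoded genes and -0.59 for the ribosomal protein genes, against -0.01 over all genes. These medians are of the full fit only, with Pb 6 included and no length adjustment.

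In daughters, Pb+Mn against Pb gave 607 genes (3.71%) at an unadjusted p under 0.05 and 0 past the adjusted threshold. The difference between sons and daughters passed the adjusted threshold for no gene (edgeR, smallest adjusted p 0.92; DESeq2 0), and 560 genes (3.42%) had an unadjusted p under 0.05. Without female Pb 2, whose length trend was -0.329, that count was 2705. Over 16360 genes, the log2 fold changes of the sexes had a Pearson r of 0.37 and a Spearman coefficient of 0.40, as a description across genes. Without male Pb 6 and female Pb 2, r was -0.04, and in the length-adjusted fit 0.16. Of the 486 genes called in all 3 fits in sons, 398 (81.9%) had the same sign in daughters, against 65.6% of all genes. Without those 2 animals the shares were 58.4% and 42.8%, and in the length-adjusted fit 67.5% and 54.7%. The immediate early genes had a median of -0.04 in daughters, and Egr4 -0.12 ± 0.24, Junb -0.03 ± 0.23 and Btg2 -0.05 ± 0.24. Crispld2 was 0.48 ± 0.19 in daughters and Cemip 0.28 ± 0.17, and neither difference between the sexes passed the threshold. Hic2, a transcriptional repressor gene, had the smallest p for a larger value in sons. It ranged from 3.38 to 3.96 CPM in male Pb and from 4.56 to 5.55 CPM in male Pb+Mn animals, without overlap, with 0.46 ± 0.13 in sons, -0.24 ± 0.13 in daughters and a difference of 0.70 ± 0.19. The repressor gene Bcl6 (difference 0.70 ± 0.22) and the MAP kinase phosphatase gene Dusp4 (0.68 ± 0.23) followed, also without overlap between the male groups. Idh1 had the smallest p in the other direction, at -0.33 in sons and 0.04 in daughters, a difference of -0.37 ± 0.10, followed by Serpinb9 (-0.52 ± 0.16) and Tnfaip8 (-0.89 ± 0.28).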

How the data were processed

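Hippocampal RNA of 48 mice was sequenced from stranded, poly(A)-selected libraries, per the labels' protocols. The authors deposited whole-number read counts per gene, which carry no scaling. Per the submitters' processing notes, the authors used Trim Galore 0.6.9, STAR 2.7.10b and featureCounts 2.0.6, with build GRCm39. The sources used here do not give the settings for strand, multi-mapping and overlapping genes, and ribosomal protein, haemoglobin and antisense genes are uncertain. All 48 count columns were used, assigned to groups from the labelled sex and treatment. Of 57126 gene identifiers, 51884 matched a symbol (99.52% of counts). GENCODE M21 is on another build and gave only names, transcript lengths, GC content and neighbours, and 98.3% of the genes tested had a length. Promoter sequences are from RefSeq, on GRCm38.p6.

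Genes were kept by filterByExpr, scaled by TMM and tested, two-sided, by quasi-likelihood in edgeR 4.0.16 (R 4.3.3). The fit held all 48 libraries with a term per group, and p-values were adjusted by Benjamini-Hochberg over 16360 genes. SE is the log2 fold change over the root of F and is approximate (median 0.16). CPM uses TMM-scaled totals. In simulated data for this comparison, on 16360 genes, the test recovered 54.0% of 1.5-fold and 82.0% of 2-fold changes, with 6 false among 142 calls. The simulated counts were drawn independently for each gene, with no length trend and no outlying library. These rates may therefore not hold for the real libraries. No 2 libraries within the Pb or Pb+Mn group had counts as close as sampling allows (the chi-square statistic was at least 8.9 per degree of freedom).

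The comparison, the gene lists and the tests were chosen with earlier results of these data known. Named genes were, among named protein-coding genes whose mean log2 CPM reached 0, the 6 higher and 6 lower of smallest p, the 10 and 10 of smallest p in the worst of the 3 fits, up to 3 members per described list, 12 fixed genes, and the 3 of smallest p in each direction for the interaction and the sex difference. Other members given beside a list are examples. Alternatives were other scaling, filters, tools (DESeq2 1.42.0, limma 3.58.1), subsets of libraries, a length curve as offset, a replicate block, and each animal left out.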

Additional observations from a re-analysis of the deposited data

Results flagged for a closer look

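In 208 sets of 6 animals (the Pb and the Pb+Mn animals for each of 103 named genes and for the length trend), 1 animal lay far from the other 5 in 11 sets, where chance gives about 1 in 20. The count is thus near the chance rate. The length trend of Pb 6 was not among the 11. In the Pb group, Pb 1 was high for the astrocyte genes Glul, at 3240 CPM against 1840 to 2240 in the others, and Slc1a3, at 1300 CPM against 847 to 970, and low for Fuca2, at 41.1 CPM against 52.5 to 55.5. Pb 6 was high for the proteasome gene Psmd14, at 162 CPM against 63.3 to 89.5. Pb 5 was low for Tnfaip8, at 9.33 CPM against 12.2 to 13.5, and Pb 3 held 0 CPM of AC165951.1 against 15.9 to 51.6. In the Pb+Mn group, Pb+Mn 4 was low for Car8, at 2.33 CPM against 3.61 to 4.51, and high for Bdnf, at 56 CPM against 35 to 39.5. Pb+Mn 2 was high for Cox4i1, at 599 CPM against 411 to 472. Pb+Mn 5 was low for the chaperone-like gene Manf, at 38.3 CPM against 56.8 to 62, and Pb+Mn 6 for Zbtb16, at 58.6 CPM against 67.7 to 73.2.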

How the results depend on the processing

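For Pb+Mn against Pb in males, the count past the adjusted threshold was 0 in the full fit and 1 with the 12 libraries alone, 1 with those without Pb 6, 1 with the replicate block and 1 with the block and the length trend. It was 202 by DESeq2 and 471 by limma voom with quality weights, and 0 to 1041 when 1 animal was left out. The 3643 genes at an unadjusted p under 0.05 became 1285 without Pb 6, 869 with the length trend, 796 with both, 765 with the 12 libraries and the length trend, 2117 with the 12 libraries without Pb 6, 1992 without male Pb 6 and female Pb 2, 713 with the replicate block and the length trend, and 1285 to 4736 when 1 animal was left out. The replicate block alone gave 2720. The labels do not say whether a shared number pairs animals. Correlations of same-numbered animals ran from -0.28 to 0.12, and low values cannot exclude a pairing. Without a filter on low counts 4738 of 36923 genes were called unadjusted, and DESeq2 size factors in edgeR gave 3627. The 2136 genes of the interaction became 880 without Pb 6, 824 with the length trend and 880 to 3143 with 1 animal left out. The 560 genes of the sex difference became 1483 without male Pb 6 and female Pb 2, and 309 to 2705 with 1 animal left out. The length trend difference of 0.132 ranged from 0.080 to 0.160 with 1 animal left out. Of the 103 named genes, 84 kept 1 sign under every setting and 49 passed the adjusted threshold in at least 1. Many of the 103 were named for a small p in this same comparison. Single settings called up to 1041 of all genes, and the share of all genes passing in at least 1 setting is not given here. The 49 are therefore no result about the named genes. Scaling moved the median of all genes by less than 0.1. The alternatives without Pb 6 and female Pb 2 together, and with the 12 libraries and the length trend or without Pb 6, were chosen after seeing the data. The cause of these shifts was not tested. With 6 animals per group and a median SE of 0.16, small differences are beyond the reach of the test.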

Other observations

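Several gene groups are not described above. Of 20 long neuronal cytoskeletal and scaffold genes, 5 were higher and 0 lower at an unadjusted p under 0.05 in the full fit, where 8.38% of all genes were higher and 13.9% lower. Without Pb 6 and with the length trend 0 were higher, and the medians were 0.19, 0.13 and -0.05. Of 18 circadian clock genes, 3, 2 and 1 were higher in the 3 fits and 0 lower, with medians of 0.09, 0.04 and 0.02. Of 20 interferon and antigen presentation genes, 0 were called, with a median of -0.29, and 0.32 in daughters. The 18 myelin and oligodendrocyte genes had 1 higher and 2 lower, with a median of -0.10, and the 15 microglia genes 0 higher and 2 lower, with a median of -0.10. The 13 adult neurogenesis genes had 0 calls and a median of 0.11. The 5 blood genes tested had a median of -0.05, and 0.59 with the length trend. Against control males their full-fit median was 1.36 in Pb males and 1.28 in Pb+Mn males. The 10 nuclear-retained and intron-rich long RNAs had a median of -0.44, and 0.02 with the length trend. The oxytocin receptor gene Oxtr ranged from 3.98 to 12.2 CPM (median 5.59) in the Pb group and from 3.33 to 10.7 CPM (median 8.4) in the Pb+Mn group, and the vasopressin receptor gene Avpr1b from 0.341 to 1.08 CPM and from 0.475 to 1.16 CPM. Both ranges overlapped almost fully, with log2 fold changes of 0.10 ± 0.23 and -0.13 ± 0.45.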
